A study of Mus musculus with 2 samples.

Results

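The antigen presentation genes described here are those of the major histocompatibility complex (MHC) class I pathway in cells sorted from mouse lymph nodes. They are B2m, H2-K1, H2-D1, Tap1, Tap2, Tapbp, Psmb8, Psmb9, Nlrc5 and Erap1, 10 of 37008 gene names on the arrays. Every spot outside the control spots whose gene name in the scanner files was one of these 10 was taken, which gave 19 probes, each printed in 1 spot. All 10 genes were above background on both arrays, and 17 of their probes were; 1 probe was above background on 1 array and 1 probe on neither.

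The study set lymph node stromal cells of tumor-bearing mice against those of mice without a tumor, on 2 one-color arrays. The tumor-draining group was female C57BL/6 mice given 4T1 mammary carcinoma cells under the skin of the mammary gland, with draining nodes taken 2 weeks later. The normal group was female mice without inoculation, and the labels' protocol names no other strain for it. Both samples were sorted by flow cytometry as CD45-, that is, lacking the antigen that marks leukocytes. Ages and the number of mice in each sample are not given in the sources used here. 4T1 is known as a line of BALB/c origin, a strain whose class I haplotype differs from that of C57BL/6.

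Class I molecules show peptides from inside the cell to CD8 T cells and carry ligands for receptors of natural killer cells. A heavy chain pairs with beta-2 microglobulin in the endoplasmic reticulum and waits in a loading complex for a peptide that the proteasome has cut, the TAP transporter has moved and an aminopeptidase may have trimmed. Nearly all nucleated cells carry class I, and interferon-gamma raises most genes of the pathway, in part through IRF1 and the transactivator NLRC5. In lymph nodes, fibroblastic and endothelial stromal cells present self peptides on class I, while leukocytes carry it as well.

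Each group held 1 array, so no p-value is given, and genes were called higher or lower by size alone, at 2-fold or more. The error in the files is technical. Repeated spots of 1 probe had a median SD of 0.050 in the log2 difference over 298 probes, and different probes of 1 gene had a median SD of 0.27 over 7599 genes. Differences between mice or sorts are not covered by either. Marker genes chosen to define cell types differed in level between the 2 arrays. Higher by 2-fold or more on the tumor-draining array were 10 of 10 pan-leukocyte genes (summed signal 40100.5 on the normal against 133405 on the tumor-draining array), 7 of 10 B cell genes (29247 against 68308), 9 of 10 T cell genes (15616 against 65996) and 7 of 7 natural killer cell genes (3536 against 14263). Lower by as much were 12 of 13 fibroblastic reticular genes (327490 against 122156), 12 of 12 blood endothelial genes (79308 against 15886), 8 of 8 lymphatic endothelial genes (43948 against 8903) and 6 of 9 mural genes (49156 against 23143). Of 10 myeloid genes 1 was higher (26494 against 28142), and of 10 epithelial genes 2 were (5570.3 against 8309). No marker of these lists was below background on either array. The part of these marker differences in the class I values was not tested, and in sorted bulk RNA fewer cells of a type cannot be told apart from less RNA per cell.

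The class I genes held a middle position between these groups. Nlrc5 was the 1 member of 10 that was at least 2-fold higher on the tumor-draining array, and no member was at least 2-fold lower. Of all 22152 genes measured on both arrays, 11.1% passed 2-fold upward and 15.9% downward, so the members' share of higher calls was close to the background. The members' log2 differences, tumor-draining minus normal, ran from -0.40 for Erap1 to 1.54 for Nlrc5 with a median of 0.14, against 0.10 for all genes measured. Psmb8, Tap1 and Psmb9 lay between 0.42 and 0.89, and 5 of 10 genes (B2m, H2-K1, H2-D1, Tap2 and Tapbp) lay within 0.25 of 0, as did 24.9% of all genes.

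**Figure D1:**
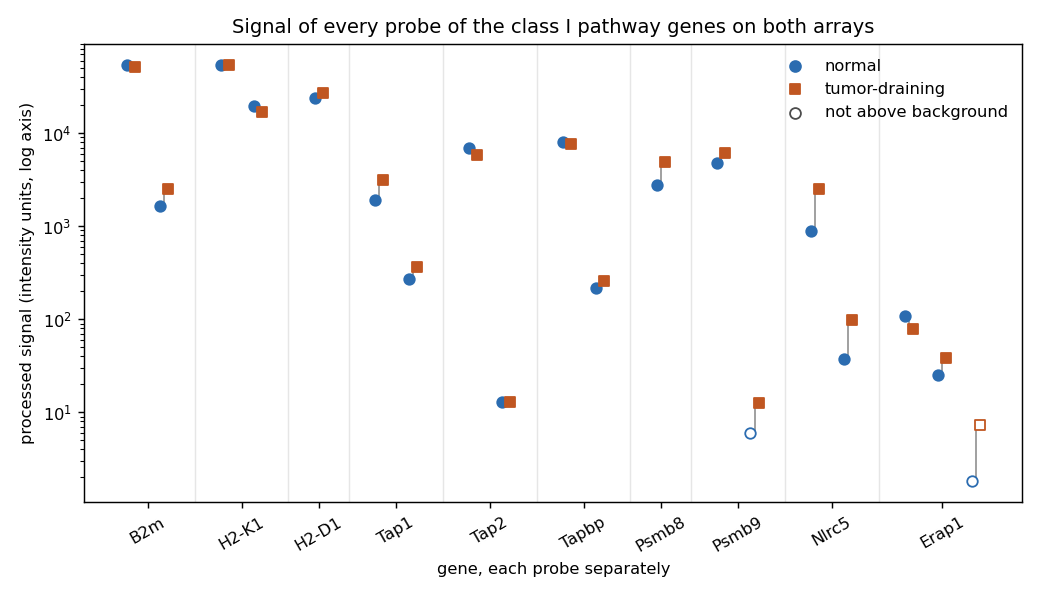
Processed signal (intensity units, log axis) of each probe of the 10 genes on the normal array (blue circles) and the tumor-draining array (orange squares), with open symbols where the probe was not above background. The symbols of B2m, H2-K1 and H2-D1 at the top nearly coincide, while both Nlrc5 probes are higher on the tumor-draining array.

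The chains of the class I molecule were nearly level between the arrays. B2m, which encodes the invariant light chain, read 54179.8 in the normal sample and 51402 in the tumor-draining sample, a log2 difference of -0.01 after scaling. Its probe lies at chromosome 2, 121978401 to 121978460 (mm9, as the files give it, with no exon or UTR stated). H2-K1, a classical heavy chain that presents peptides to CD8 T cells, had 53525 and 53501, a difference of 0.06, at chromosome 17, 34133055 to 34133114. H2-D1, the other classical heavy chain of C57BL/6, had 23951 and 26799, a difference of 0.22, at chromosome 17, 35403886 to 35403945. These 3 differences are smaller than the spread between probes of 1 gene.

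Other probes of the same chains were close for H2-K1 and less so for B2m. The second H2-K1 probe read 19561 and 16972, a difference of -0.14. It shares a run of 29 bases with probes named for H2-L and for H2-T23, and none of the 18 other member probes shares a run of 20 bases or more with any probe on the array. Probes were compared with other probes only, not with transcripts. Binding of related class I transcripts was therefore not tested for any member probe. The second B2m probe, built on a cDNA rather than on a RefSeq mRNA, read 1657 and 2526, a difference of 0.67, so the 2 probes of B2m differ by 0.68.

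Bright probes as a class did not center on 0. Among the 1137 probes with a signal of 10000 or more, the median difference was 0.46 with quartiles of 0.12 and 0.68, against medians of 0.13 to 0.16 for dimmer probes. The leading B2m probe and both H2-K1 probes therefore lie below the lower quartile of probes in their own signal range, and H2-D1 lies between the quartiles. Quantile normalization, which gives both arrays the same distribution of values, put B2m at -0.52, H2-K1 at -0.44 and H2-D1 at -0.29. In the authors' deposited table they were at -0.50, -0.41 and -0.27, and cyclic loess gave -0.62, -0.55 and -0.28. Scaling to the spike-in RNA went the other way, to 0.80, 0.88 and 1.04, since it raised every difference by 0.82. The direction of the class I chains is thus not settled by these arrays. Under no setting were B2m and H2-K1 2-fold apart, and H2-D1 was so only under the spike-in scaling.

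The peptide transporter is made of the products of Tap1 and Tap2, which pair to pump cytosolic peptides into the endoplasmic reticulum. Tap1 read 1918 in the normal sample and 3167 in the tumor-draining sample, which is 1.72-fold higher after scaling, at chromosome 17, 34334022 to 34334081 (mm9). Its other probe read 269 and 364, a difference of 0.50 against 0.78 for the first, so both probes were higher on the tumor-draining array by more than the repeated-spot error and by less than 2-fold. Tap2 read 6841 and 5809, a difference of -0.17, at chromosome 17, 34353116 to 34353175. Its second probe was close to background at 12.9 and 12.8, with a difference of 0.05. On their leading probes the subunits of 1 transporter thus differed by 0.96 in their log2 differences. The other probes, at 0.50 and 0.05, lay closer together. No replicate array tests the gap, and the SD between probes of a gene describes 1 difference, not a gap between 2 genes. Tap1 stayed above 0 in all 11 alternative settings (0.62 to 1.60), and Tap2 stayed below 0 in all but the spike-in scaling (-0.52 to -0.06, and 0.64 with spike-ins).

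Tapbp encodes tapasin, which bridges TAP and the waiting class I molecule and edits its peptide. Its leading probe read 8076 and 7680, a difference of -0.01, at chromosome 17, 34066022 to 34066081. A second probe, at 218 and 260, gave 0.32. Erap1 encodes the aminopeptidase of the endoplasmic reticulum that trims peptides to the length class I holds. Its RefSeq probe read 109.6 and 79.6, a difference of -0.40, at chromosome 13, 74828969 to 74829028. The 2 other Erap1 probes, both built on 1 cDNA, read 25.5 and 37.95 (0.64) and, below background in both samples, 1.83 and 7.29. With probes that point in opposite directions, no direction can be given for Erap1.

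Psmb8 and Psmb9 encode LMP7 and LMP2, catalytic subunits that replace constitutive ones in the immunoproteasome and favor peptides that class I can bind. Psmb8 read 2778 in the normal sample and 4929 in the tumor-draining sample, 1.85-fold higher, at chromosome 17, 34337771 to 34337830. Psmb9 read 4722 and 6054, 1.34-fold higher, at chromosome 17, 34319174 to 34319233. A second Psmb9 probe, built on an Ensembl transcript, was above background in the tumor-draining sample alone, at 12.5 against 5.98. Set against the lowest signal above background on the normal array, it was 1.69-fold higher. That signal is not this spot's own detection limit. Over the alternative settings other than the spike-in scaling, Psmb8 ran from 0.64 to 0.91 and Psmb9 from 0.10, with cyclic loess, to 0.77. Neither gene passed 2-fold except under the spike-in scaling, with 1.71 for Psmb8 and 1.24 for Psmb9. Psmb10, the remaining inducible catalytic subunit, had a difference of -0.14, so the 3 inducible subunits ran from -0.14 to 0.89.

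Nlrc5 encodes an NLR protein that binds the promoters of class I genes through a complex of RFX, CREB and NF-Y factors and activates them. Its leading probe read 893 in the normal sample and 2483 in the tumor-draining sample, which is 2.90-fold higher, at chromosome 8, 97051105 to 97051164. The second probe read 37.2 and 99.4, 2.79-fold higher. It spans 147 bases of the genome with 60 bases of sequence (chromosome 8, 97030478 to 97030624), so it crosses a gap in the alignment of transcript to genome. Both probes target the same RefSeq mRNA, and their differences were 1.54 and 1.48. Nlrc5 was at least 2-fold higher in all 11 alternative settings, from 1.39 with cyclic loess to 2.36 with the spike-in scaling. The first 30 of the 60 bases of each Nlrc5 probe are shown, since the call rests on these oligos, beside those of the probes that stand for B2m and H2-K1.
Nlrc5, first probe: taaactcacaacactccatatcaaatgatc
Nlrc5, second probe: tggctgaccaagtgtcacttggacctgcca
B2m: ttgaacctgcttaattacaaatccagtttc
H2-K1: tgaatgtaaccttgattgttatcatcttga

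The Nlrc5 difference stood beside leukocyte genes of like or greater size. Pan-leukocyte genes had a median difference of 1.79 and T cell genes one of 2.31, and Ptprc, whose product was sorted against, was at 2.30. Nlrc5 is known to be high in lymphocytes, and its part in the leukocyte shift was not tested.

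**Figure D2:**
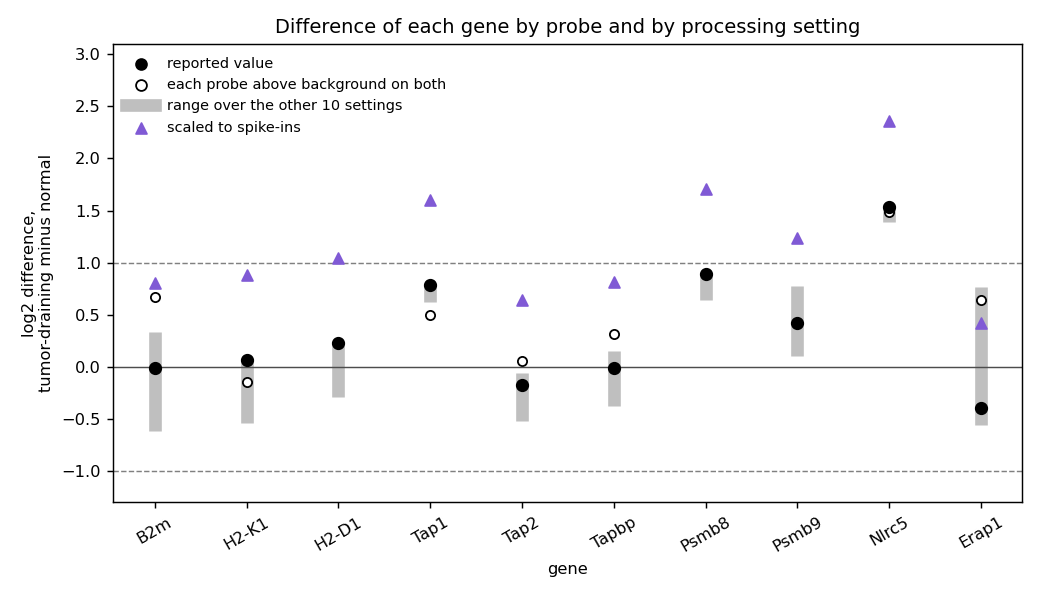
Log2 difference (tumor-draining minus normal) of each gene, with the reported value as a filled circle, each probe above background on both arrays as an open circle, the range over 10 alternative settings as a grey bar and the spike-in scaling as a triangle. Dashed lines mark 2-fold. Nlrc5 lies above the upper line in every setting, while the bars of B2m, H2-K1, H2-D1, Tapbp, and Erap1 cross 0.

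Probes not aimed at a RefSeq mRNA tended to read higher on the tumor-draining array across the whole array. Of the 19 member probes, 15 target a RefSeq mRNA. B2m and Erap1 have probes of both kinds above background on both arrays, and the other probe had the higher difference in each. Over 3473 genes with both kinds of probe above background on both arrays, the other kind was higher in 69.9%, by a median of 0.32. The cause was not tested.

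Psmb9, Tap1, Psmb8 and Tap2 lie side by side in the class II region of chromosome 17, with their leading probes within 33.9 kb of each other. All 9 class II genes of the fixed list with probes within 150 kb of the Tap1 probe were at least 2-fold higher on the tumor-draining array, from 1.59 for H2-Ab1 to 2.70 for H2-Oa. The class I processing genes in their midst ran from -0.17 to 0.89, below every one of those neighbors. The nearest class II probes were those of H2-DMb1 (2.49), which loads peptides on class II molecules and lies at -36.9 kb from the Tap1 probe, and H2-Ob (2.18), at 46.5 kb. Among the 4 remaining genes of the window, Brd2, a chromatin reader found in most cells, had a difference of 0.57, Col11a2 had 1.36, Gm20506 had 2.68, and H2-Eb2, a class II beta gene outside the list, had 3.27. B cell genes, whose cells carry class II, were higher on the same array by a median of 1.58, and their part in the class II values was not tested.

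**Figure D3:**
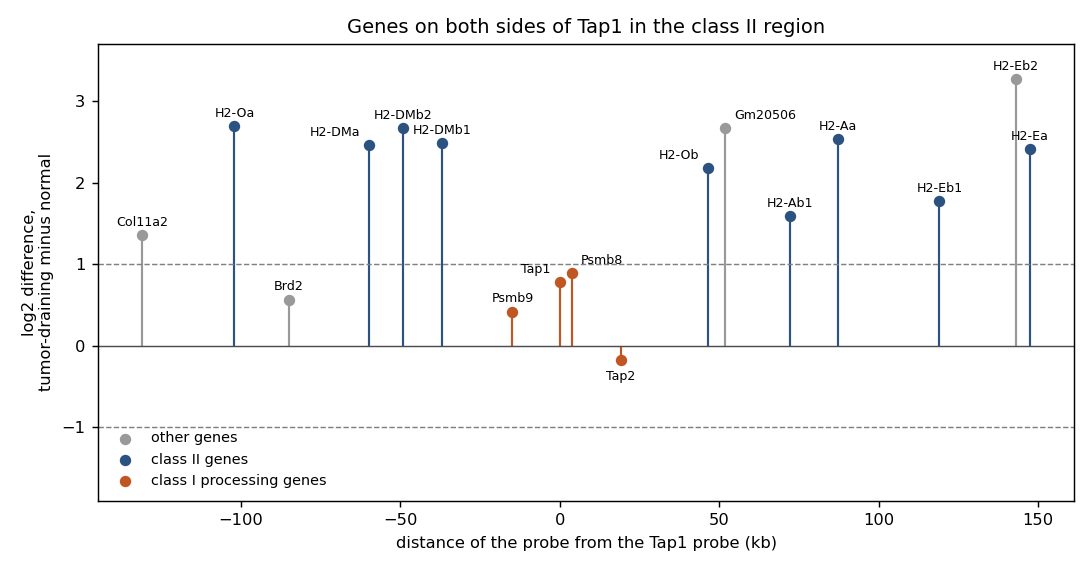
Log2 difference (tumor-draining minus normal) of 17 genes above background on both arrays, by distance of the probe from the Tap1 probe in kb. The 4 class I processing genes (orange) lie between -0.17 and 0.89, and the class II genes on both sides (blue) between 1.59 and 2.70.

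The promoters of the class I chains hold matches to motifs of factors known to control the pathway, and they are shown because Nlrc5 differed between the arrays while H2-K1, H2-D1 and B2m did not reach 2-fold. Promoter windows of 250 bases before and 50 after the start site were taken from RefSeq on GRCm38.p6, where 8 of the 10 genes matched by symbol, Tap2 and Nlrc5 being the exceptions. Searched on both strands were an interferon-stimulated response element (ISRE, GAAA, any 2 bases, GAAA), a form of it with a shorter gap (GAANNGAAA), a kappa B site (GGG, any 2 bases, TT, any base, CC), a gamma-activated site (GAS, TTCNNNGAA), the CRE core (TGACG) and the Y box (ATTGG). H2-K1 and H2-D1 held the kappa B site and the shorter ISRE form in the same order, and B2m held the ISRE and the kappa B site. The kappa B letters occur in 4.79% of 32851 RefSeq promoter windows, the ISRE in 3.44%, its shorter form in 7.52%, the GAS in 8.30%, the CRE core in 20.8% and the Y box in 37.4%. The upstream 250 bases of H2-D1 and B2m follow, with matches in capitals, each on the + strand of GRCm38.p6.
H2-D1, chr17:35262844-35263093: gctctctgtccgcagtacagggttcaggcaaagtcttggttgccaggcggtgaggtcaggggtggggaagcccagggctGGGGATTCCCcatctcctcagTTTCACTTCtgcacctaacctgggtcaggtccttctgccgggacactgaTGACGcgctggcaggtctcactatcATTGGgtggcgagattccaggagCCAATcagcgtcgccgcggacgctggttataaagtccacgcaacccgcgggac
B2m, chr2:122147437-122147686: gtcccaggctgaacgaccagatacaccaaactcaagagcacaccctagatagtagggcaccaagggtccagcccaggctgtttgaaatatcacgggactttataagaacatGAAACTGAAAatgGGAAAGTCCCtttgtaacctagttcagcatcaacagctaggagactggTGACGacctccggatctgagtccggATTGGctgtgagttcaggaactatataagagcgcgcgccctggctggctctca

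The CRE core and the Y box stood at the same spacing in all 3 chain promoters, with exactly 20 bases between them. This spacing was noticed on reading the windows and then counted. It occurs in 31 of the 32851 windows, or 0.0944%, those of the 3 chains among them. The stretch ends 12 bases before the first H2-K1 start site, 72 before that of H2-D1 and 49 before that of B2m. The aligned windows of 30 bases, motifs in capitals, lie on the - strand for H2-K1 and the + strand for the others.
H2-K1, chr17:34000359-34000388: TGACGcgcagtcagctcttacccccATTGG
H2-D1, chr17:35262993-35263022: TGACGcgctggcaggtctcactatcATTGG
B2m, chr2:122147609-122147638: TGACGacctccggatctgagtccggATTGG
Between the motifs H2-K1 and H2-D1 share 13 of 20 bases, and B2m shares 3 with H2-K1 and 2 with H2-D1. Of 27 genes with this spacing, 22 were above background on both arrays. Both counts include the 3 chains in which the spacing was noticed, so the values describe the list and test nothing. Of the 22, none passed 2-fold upward (11.1% of all genes did) and 2 passed it downward (15.9% of all genes did). The median difference of the 22 was 0.39, against 0.10 for all genes above background on at least 1 array, a wider set. The 2 lower ones were Nrarp (-1.60) and Calu (-1.48). H2-M3, a nonclassical class I gene, was among them at 0.51, as was Trim26, a gene of the same complex, at 0.82. Znrd1 (0.44) and Znrd1as (-0.54) were on the list as well, and the 22 genes ran from -1.60 to 0.87.

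Tap1 and Psmb9 are read in opposite directions from 1 shared stretch, with 225 bases between their RefSeq start sites and 275 bases common to the 2 promoter windows. Their differences were 0.78 and 0.42. Psmb8, at 0.89, held a GAS match from 97 to 89 bases before its start site and none of the other motifs, and Erap1 held an ISRE match across its start site. A match is a description of letters, not a site shown to be used. The stretch between Tap1 and Psmb9 is given on the + strand, then the upstream 250 bases of Psmb8.
Tap1, chr17:34187331-34187555: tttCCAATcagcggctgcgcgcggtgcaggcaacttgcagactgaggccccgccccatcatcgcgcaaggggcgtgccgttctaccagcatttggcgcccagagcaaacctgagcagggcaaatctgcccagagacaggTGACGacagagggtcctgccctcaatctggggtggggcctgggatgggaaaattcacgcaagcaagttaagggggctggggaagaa
Psmb8, chr17:34197945-34198194: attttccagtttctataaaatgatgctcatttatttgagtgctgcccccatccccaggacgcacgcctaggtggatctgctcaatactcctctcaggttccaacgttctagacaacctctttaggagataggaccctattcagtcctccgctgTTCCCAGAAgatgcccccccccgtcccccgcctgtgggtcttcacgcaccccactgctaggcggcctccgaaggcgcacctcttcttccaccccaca

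**Figure D4:**
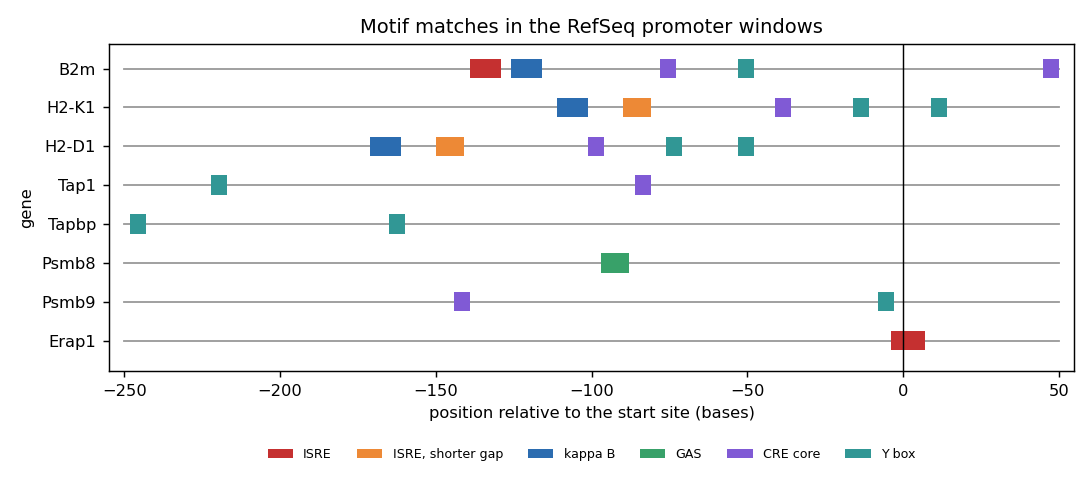
Positions of motif matches from 250 bases before to 50 bases after the RefSeq start site of the 8 matched genes, with a color for each motif and the first start site of H2-K1. The CRE core and Y box of B2m, H2-K1 and H2-D1 lie at 1 spacing, and Tapbp and Tap1 show no ISRE or kappa B match.

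Chaperones, proteasome genes and peptidases of the wider pathway were all within 2-fold on their brightest probes under the 75th percentile scaling. Of all genes, 11.1% passed 2-fold upward and 15.9% downward. Of 10 loading chaperones and accessory genes none was past 2-fold, with a median of 0.01. They ran from Pdia3 (-0.29), the oxidoreductase of the loading complex, and Calr (-0.22), the chaperone calreticulin, to Sec61b (0.40), a translocon subunit, and Tapbpl (0.56), a tapasin-related peptide editor. All 14 genes of the constitutive proteasome core were within 2-fold (median 0.06), from Psmb7 (-0.21) and Psma5 (-0.07) to Psmb2 (0.46) and Psma3 (0.55). Of the 5 immunoproteasome partners 4 were on the array under their names, with Psmb10 (-0.14) and Pomp (-0.08), an assembly factor, lowest and Psme1 (0.61) and Psme3 (0.93), proteasome activator subunits, highest. The 8 other peptidases were within 2-fold as well, from Thop1 (-0.77) and Blmh (-0.49) to Tpp2 (0.73) and Lnpep (0.73). Other probes above background on both arrays passed 2-fold upward for Blmh (1.47), Npepps (1.22), Lnpep (1.11) and, in the proteasome core, Psma3 (1.14). Another Thop1 probe was at 0.48, so the low values of Blmh and Thop1 hold for their brightest probes only.

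Regulators of class I promoters had the highest median of the pathway's own lists, apart from the class II genes and the class I receptors, at 0.47. On their brightest probes, 2 of 16 were at least 2-fold higher and none lower, a share of higher calls close to the 11.1% of all genes. Ciita, the class II counterpart of Nlrc5, read 1425 and 10400.1, a difference of 2.93. Nfyb (-0.11) and Rela (-0.10) were lowest.

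Genes of the interferon-gamma signal went both ways. Of 15 measured, 4 passed 2-fold upward (11.1% of all genes did) and 1 downward (15.9% of all genes did), with a median of 0.17. Ifng itself, made by T and natural killer cells, read 557 and 2466 (2.21). Jak2 (1.04) and Igtp (1.01), a GTPase, were just past 2-fold. The lowest were Iigp1 (-2.36), another GTPase induced by interferon-gamma, at 7034 and 1315, and Gbp5 (-0.36). Irf1, which binds class I promoters, read 16539 and 14999.8, a difference of -0.08. T and natural killer cell genes were higher on the same array, and their part in the Ifng value was not tested.

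Most genes of the list of receptors for class I and class I-like ligands were higher. Of 12 receptor genes measured on both arrays, 10 passed 2-fold upward and none downward, against 11.1% and 15.9% of all genes. The median was 1.79 over the 14 genes measured, or a shift against all genes of 1.69 that was 0.85 with normexp. Cd8a (2.78) and Cd8b1 (2.52), the CD8 coreceptor chains, were highest. Klra1 (-0.14), a receptor of natural killer cells, and Pirb (0.23), a receptor of B and myeloid cells, were lowest on their brightest probes, with other probes up to 1.71 and 1.18. Klra4, Klra7 and Klra9 rest on low normal signals of 24.7, 25.3 and 24.3. T cell genes (median 2.31) and natural killer cell genes (median 2.00) were higher on the same array. Cd8a is also in that T cell list and Klrk1 in that natural killer cell list.

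**Figure D5:**
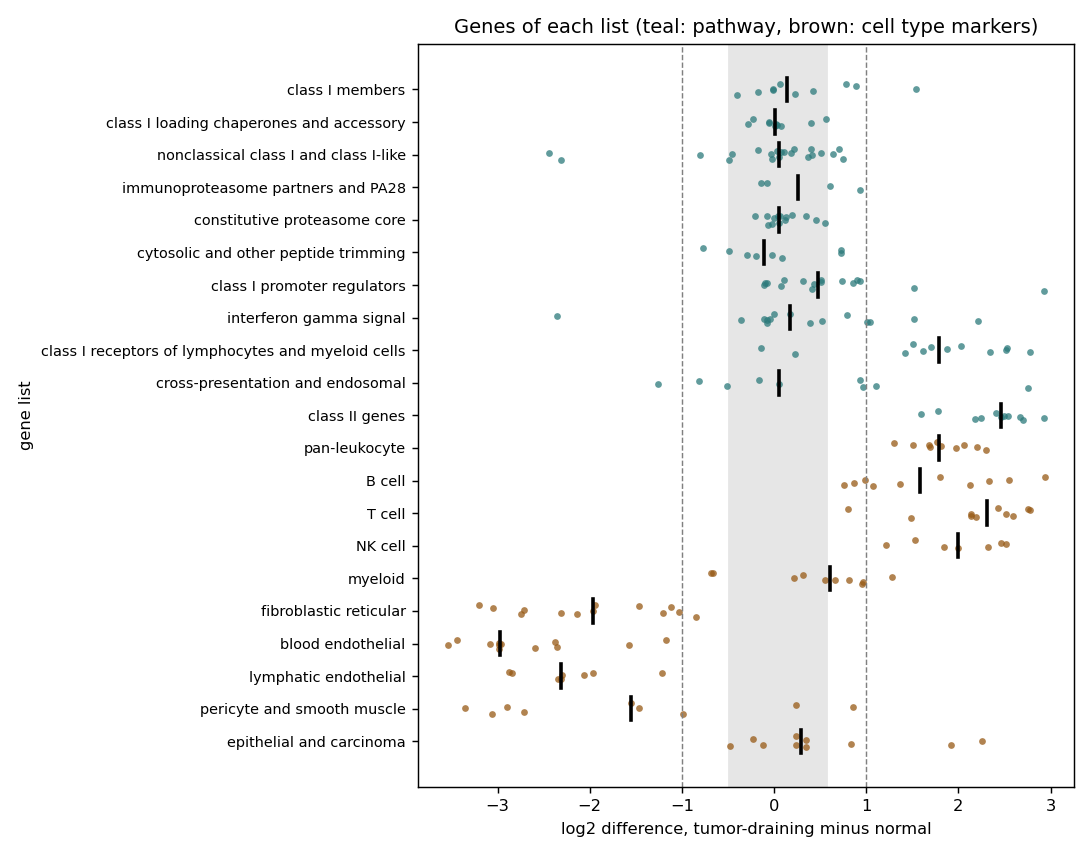
Log2 difference (tumor-draining minus normal) of the genes above background on both arrays in each list, with the median over its measured genes as a black bar, the interquartile range over all genes (-0.49 to 0.58) in grey and 2-fold as dashed lines. The class I members and their chaperones and proteasome genes lie mostly in the grey band, between leukocyte markers on the right and stromal markers on the left.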

How the data were processed

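Cy3-labeled cRNA made from total RNA was read on 2 Agilent one-color arrays, 1 per group, per the labels' protocols. The deposited scanner files hold linear spot intensity values, background-subtracted by Feature Extraction 12.0.3.1, as the scanner software's own entries per the file headers show. Feature Extraction 10.7 and limma are listed in the submitters' processing notes. The authors' deposited table is on a log2 scale that the file does not describe. Its columns follow the log2 signals (r = 0.9999 in each), its medians were 4.85 and 4.86, and its exact normalization stays unknown.

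Here the log2 processed signal was reduced by its array's 75th percentile over 59305 non-control spots (374 and 358), and non-uniform and outlier spots were left out. Probes were taken as above background if the software had marked 50% or more of their spots so, which held for 36783 probes on the normal and 35570 on the tumor-draining array of 56605. No non-control spot was saturated. The probe with the highest mean stood for its gene, and other genes were named through RefSeq accessions, symbols and synonyms (GRCm38.p6). A gene above background on 1 array was set against the higher of its dim value and the lowest signal above background there. The scripts were tested on simulated data.

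The members and lists were chosen with earlier results of these data known. Beyond the 10 members, each pathway list is given with its 2 highest and 2 lowest genes above background on both arrays (cell type lists by counts and sums only), apart from an item that is not reported here. Irf1, H2-M3, Trim26, Znrd1, Znrd1as, Calu, Nrarp, Npepps, Klra4, Klra7, Klra9, Klrk1 and the neighbors of Tap1 outside these were named after their values were seen. So were Creb1, Atf1, H2-Q10, H2-M2 and Sec22b. The number of arrays limits the precision. Alternatives were normexp background correction (offset 50), quantile and cyclic loess (span 0.3) normalization, scaling to the median of all detected probes or to 6 spike-in probes under 60000, other ways to combine probes, no background filter, outlier spots kept, and the authors' table. Python 3.11.15, numpy 2.4.6, pandas 2.3.3, R 4.3.3 and limma 3.58.1 were used.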

Additional observations from a re-analysis of the deposited data

How the results depend on the processing

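Of 110 member values recomputed over 11 alternatives, 80 moved by less than the median between-probe SD of 0.27 and 30 by more. Some of the 80 could not move. Dropping the background filter and keeping outlier spots returned the main value for every member. Combining probes in other ways cannot change H2-D1 and Psmb8, which have 1 probe each. These settings also count among the 11 given for Tap1 and Nlrc5. The spike-in scaling put 5 members past 2-fold higher in place of 1, with 46.7% of all genes so called and 8.08% lower, against 11.1% and 15.9%, and normexp called 6.21% higher. The members' median against all genes, 0.04, was -0.25 with quantile normalization, -0.26 with cyclic loess, -0.25 in the authors' table, 0.35 as the mean over all probes and 0.35 as their median. The class I receptor shift of 1.69 was 0.85 with normexp. The other pathway lists' medians against all genes moved by less than that SD in the alternatives run. No paired analysis was possible because each group has 1 array.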

Other observations

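On their brightest probes, 21 genes of the nonclassical class I and class I-like list, which also holds H2-L, were above background on both arrays. None was at least 2-fold higher and 2 were at least 2-fold lower, against 11.1% and 15.9% of all genes. Other probes above background on both arrays reached 2.09 for H2-Q10 and -1.92 for H2-M2, whose brightest probes were at -0.04 and 0.03. The median was 0.06 over the 23 measured. The highest were H2-T9 (0.75) and H2-T10 (0.71), T-region genes with closely related sequences that one another's probes may read. The 2 lowest were not peptide receptors. Fcgrt, which encodes the neonatal Fc receptor heavy chain that recycles IgG and albumin, read 2974 in the normal sample and 574 in the tumor-draining sample, 4.96-fold lower. Hfe, which encodes a class I-like partner of the transferrin receptor in iron control, read 734 and 130, 5.42-fold lower. Both chains pair with beta-2 microglobulin, and B2m differed by -0.01. By their medians, blood endothelial (-2.97), lymphatic endothelial (-2.31), fibroblastic reticular (-1.96) and mural genes (-1.55) were lower on the same array. The part of these cell types in the Fcgrt and Hfe values was not tested.

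Cross-presentation is the display of outside antigen on class I. Of 9 measured genes tied to it, 2 were at least 2-fold higher and 1 lower by as much on their brightest probes. The shares over all genes were 11.1% and 15.9%, and the list's median was 0.05. Sec22b (-0.51) had other probes above background on both arrays at -1.23 and 0.85. Cybb, the catalytic subunit of the phagocyte oxidase, read 95.9 and 622 (2.76), and Rab27a was at 1.11. Cd207, the langerin of Langerhans and dermal dendritic cells, read 47.6 and 19.1 (-1.26), and Clec9a, a receptor of cross-presenting dendritic cells, was at -0.82. The class II list had a median of 2.46 over 11 genes, all at least 2-fold higher, against 11.1% of all genes.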
